A study of Mus musculus with 3 samples.

Results

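Vomeronasal receptors are the chemosensory receptors of the mouse vomeronasal organ, and 743 of the 24666 peaks of an L1 RNA ChIRP library lay in 9 windows of the genome set around clusters of their genes. A peak belonged to a window if its midpoint fell inside it, and the windows were fixed by coordinates of the mouse build mm9. Their limits made no use of the peaks' number, width or spacing, but the windows were chosen with earlier results of these data known. Together they span 41 Mb on 6 chromosomes. These chromosomes carried 7899 peaks, so that the windows made up 5.07% of their span and 9.41% of their peaks. The other 7156 peaks of the same chromosomes were the comparison.

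The cells were E14, an established line of mouse embryonic stem cells, for which the labels give no treatment and no genetic change. ChIRP captures an RNA with biotinylated DNA probes together with the crosslinked chromatin, here with probes for L1 RNA. The series holds 3 libraries (L1 ChIRP, Malat1 ChIRP and input DNA) with 1 replicate each, and only the L1 library was analysed here. The labels call its molecule genomic DNA while the protocol describes reverse transcription of the retrieved RNA, so a peak need not be a place on chromatin that L1 RNA occupied. The deposited list gives each peak's chromosome, start and end and no height or p-value, and the read depth is unknown.

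Vomeronasal receptor genes form 2 families of G protein-coupled receptors, V1R and V2R (gene symbols Vmn1r and Vmn2r), whose members bind pheromones and other chemical cues. V1R genes have their coding sequence in a single exon, whereas V2R genes have several exons and encode a long extracellular domain. Both families grew by tandem duplication in rodents, left many pseudogenes, and lie in clusters known to be rich in L1, the long interspersed retrotransposon that makes up much of the mouse repeat content. The receptors serve in sensory neurons, and embryonic stem cells are not a tissue in which they are known to act.

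The RefSeq gene table, of build GRCm38, lists 645 genes named Vmn1r or Vmn2r, of which 373 are V1R and 272 V2R and 355 are protein coding. The 6 chromosomes of the windows hold 581 of them. With neighbours joined when their starts lay within 1 Mb, 544 of these fell into 14 clusters of at least 10 genes. Chromosome 3 had a single cluster of 18 V2R genes, from Vmn2r-ps3 to Vmn2r-ps13, with no other coding gene between them. Chromosome 5 had a single cluster of 13 V2R genes, and chromosome 13 had 75 V1R genes in its first cluster, with 1 other coding gene between them. Chromosome 6 had 2 V1R clusters, of 44 and 23 genes, and a V2R cluster of 13. On chromosome 7 the clusters held 20, 94, 99, 15 and 41 genes in their order along the chromosome. The cluster of 94 was made of 47 V1R and 47 V2R genes with 29 other coding genes between them, 16 of them with symbols of zinc finger genes (Zfp, Zscan or Zik), such as Zscan4c, Zfp418 and Zfp329. The cluster of 99 held V1R genes only, and that of 41 held V2R genes only, with 17 olfactory receptor genes among 18 other coding genes. The first cluster of chromosome 17 joined 36 V2R and 26 V1R genes and enclosed 7 genes of the formyl peptide receptor family (Fpr), receptors also known from vomeronasal neurons and immune cells.

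These clusters are those of another build, no position was carried over to mm9, and which gene lies under a given peak was not analysed here. There are more clusters than windows on chromosomes 6, 7, 13 and 17, so the rest of these chromosomes may contain receptor genes too. The windows also end at whole Mb and can include other genes. Below, the windows are grouped as V1R (both of chromosome 6, 20 to 25 Mb of chromosome 7, and chromosome 13), V2R (chromosomes 3 and 5, and 91 to 95 Mb of chromosome 7) or both families (3 to 16 Mb of chromosome 7, and chromosome 17), from general knowledge of the gene families.

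Pooled over the windows, peaks were denser than in the rest of the same chromosomes. The windows held 18.1 peaks per Mb, against 9.32 per Mb in the rest of the same chromosomes, a ratio of 1.94 (95% interval 1.80 to 2.10 from counting error alone). By covered bases the contrast was similar in size, with peaks over 12.2% of the windows and 6.18% of the rest, a ratio of 1.97. Peak number varied from one 1 Mb bin to the next by more than counting error, with a variance 6.80 times the mean in the bins outside the windows. With the interval widened for that spread, the interval of the pooled ratio was 1.60 to 2.37. Chromosomes weigh unequally in this ratio, since chromosome 7 held 22 of the 41 Mb of the windows and 126 of the 768 Mb of the rest. Neither interval allows for this mix. The median of the windows' ratios, each to its own chromosome, was 2.07. With 1 library there is no spread between replicates to compare with, and no test was made of any difference reported here.

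Of the 9 windows, 8 were denser than the rest of their own chromosome, by very different amounts. The lead was held by the V1R window of chromosome 6 from 56 to 59 Mb, with 71 peaks or 23.7 per Mb (95% Poisson interval 18.5 to 29.9). The window of chromosome 7 from 3 to 16 Mb followed with 284 peaks, or 21.8 per Mb (19.4 to 24.5). It alone supplied 38.2% of the members. Chromosome 17 from 18 to 24 Mb held 119 peaks, or 19.8 per Mb (16.4 to 23.7). These 3 were the densest, but along the whole order of 9 windows the ratio of each to the next had a counting interval that included 1.

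The middle of the order was close together. The V1R window of chromosome 7 from 20 to 25 Mb held 82 peaks, or 16.4 per Mb (13.0 to 20.4). The V2R window of the same chromosome from 91 to 95 Mb held 64, or 16 per Mb (12.3 to 20.4), and that of chromosome 5 from 108 to 111 Mb held 46, or 15.3 per Mb (11.2 to 20.5). The ratios between successive windows of these 3 were 1.02 (0.73 to 1.44) and 1.04 (0.70 to 1.56), so they could not be ordered.

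The windows at the low end were near their chromosomes' own level. The V2R window of chromosome 3 from 63 to 66 Mb held 40 peaks, or 13.3 per Mb (9.53 to 18.2), beside 12.5 in the rest of that chromosome. The V1R window of chromosome 13 from 22 to 24 Mb held 21 peaks, or 10.5 per Mb (6.50 to 16.1), beside 8.70 per Mb. The second V1R window of chromosome 6, from 89 to 91 Mb, held 16 peaks, or 8 per Mb (4.57 to 13.0), and was the only one below the rest of its chromosome (9.85). Both V1R windows of chromosome 6 thus stood at the ends of the order. Their densities differed 2.96 times (1.70 to 5.45 by counting error), but with the interval widened for the spread of bins (0.71 to 12.4) they were not separated.

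**Figure D1:**
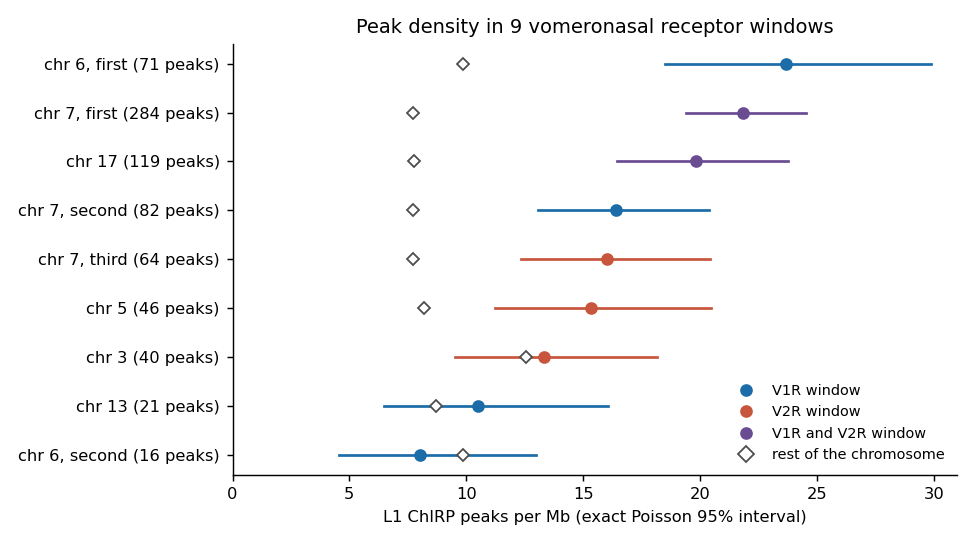
Peaks per Mb in each of the 9 windows (coloured points, with exact Poisson 95% intervals as lines) beside the rest of the same chromosome (open diamonds), ordered by density. The highest 6 windows lie between 15.3 and 23.7 per Mb with intervals above their diamonds, while the intervals of the other 3 (chromosome 3, chromosome 13 and the second of chromosome 6) include theirs.

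Set against its own chromosome, the largest excess was that of chromosome 7 from 3 to 16 Mb, at 2.83 times the rest (interval widened for the spread of bins, 1.95 to 4.11). Chromosome 17 stood at 2.55 (1.49 to 4.38) and the first window of chromosome 6 at 2.40 (1.28 to 4.51). The other windows of chromosome 7 stood at 2.12 (1.12 to 4.01) for 20 to 25 Mb and 2.07 (1.02 to 4.23) for 91 to 95 Mb. For these 5 the widened interval lay above 1. Chromosome 5, at 1.87, was above 1 by counting error (1.36 to 2.51) but not with the widened interval (0.87 to 4.03). The ratio was 1.21 (0.45 to 3.20) on chromosome 13, 1.06 (0.51 to 2.23) on chromosome 3 and 0.81 (0.22 to 2.98) for the second window of chromosome 6. None of these intervals was adjusted for the number of windows.

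By receptor family, the 2 windows with both families held 21.2 peaks per Mb, the 4 V1R windows 15.8 and the 3 V2R windows 15.0. The V1R windows ranged from 8 to 23.7 per Mb and so enclosed the whole range of the V2R windows, 13.3 to 16, and of the mixed windows, 19.8 to 21.8. On chromosome 7, the only chromosome with windows of each kind, the mixed window held 21.8 peaks per Mb, the V1R window 16.4 and the V2R window 16. The 4 Mb between its mixed and V1R windows held 18.0 per Mb. With 1 window of each kind, family cannot be told apart from window there, nor from chromosome elsewhere.

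Peak number also varied between the bins of the windows, with a variance 5.37 times the mean, against 6.80 times outside. By window this value ran from 1.87 in the first of chromosome 6 to 20.9 on chromosome 5, each with 3 bins. Of the windows' 41 bins of 1 Mb, 17 held 20 or more peaks (41.5%, 95% binomial interval 26.3 to 57.9), where 12.7% of the 772 bins outside did. No bin of the windows lacked a peak, where 11.8% of the bins outside did. A bin of the windows held 18.1 ± 9.87 peaks (SD, n = 41 bins, which are not replicates) and a bin outside 9.27 ± 7.94 (n = 772). The lowest bin of the windows held 4 peaks and the highest 42, and 33 of 41 lay above the outside median of 8 peaks.

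In some windows a single bin carried most of the peaks. On chromosome 5 the bin from 109000001 to 110000000 held 36 of 46, between bins of 5 and 5, and it was the most peak-rich of the 150 bins of that chromosome. The shortest stretch with 50% of that window's peaks, 23 midpoints, was 0.39 Mb long, from 109286910 to 109675849, or 13.0% of the window. The last peak of the window ended at 110498396 and the next peak of the chromosome lay 6.55 Mb further, so the 3 Mb after the window held none. In the 3 Mb before it there were 20 peaks. The window of chromosome 5 is therefore a narrow island of peaks beside a long stretch without any.

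Chromosomes 3 and 13 showed the same form at a lower level. On chromosome 3 the bin from 64000001 to 65000000 held 25 of 40 peaks, between bins of 11 and 4. Unlike chromosome 5, its surroundings were peak-rich, with 62 peaks in the 3 Mb before the window and 39 in the 3 Mb after it, or 20.7 and 13.0 per Mb. On chromosome 13 the bin from 22000001 to 23000000 held 17 of 21 peaks, and 11 of them lay within 0.39 Mb. The 3 Mb on its sides held 12.3 and 9.67 peaks per Mb, about the level of the window itself.

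The 2 windows of chromosome 6 both stood out from an almost empty neighbourhood on at least 1 side. The first held 18, 31 and 22 peaks in its bins, after 6 peaks in the 3 Mb before it. The 3 Mb after it held 53, or 17.7 per Mb, so this peak-rich region did not end at the window's limit. The second window held 11 and 5 peaks, with 1 peak in the 3 Mb before it and 4 in the 3 Mb after it, or 0.33 and 1.33 per Mb. It was thus sparser than the rest of its chromosome and still denser than its own surroundings. Of its 16 peaks, 8 midpoints lay within 0.27 Mb, from 89708988 to 89981709.

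**Figure D2:**
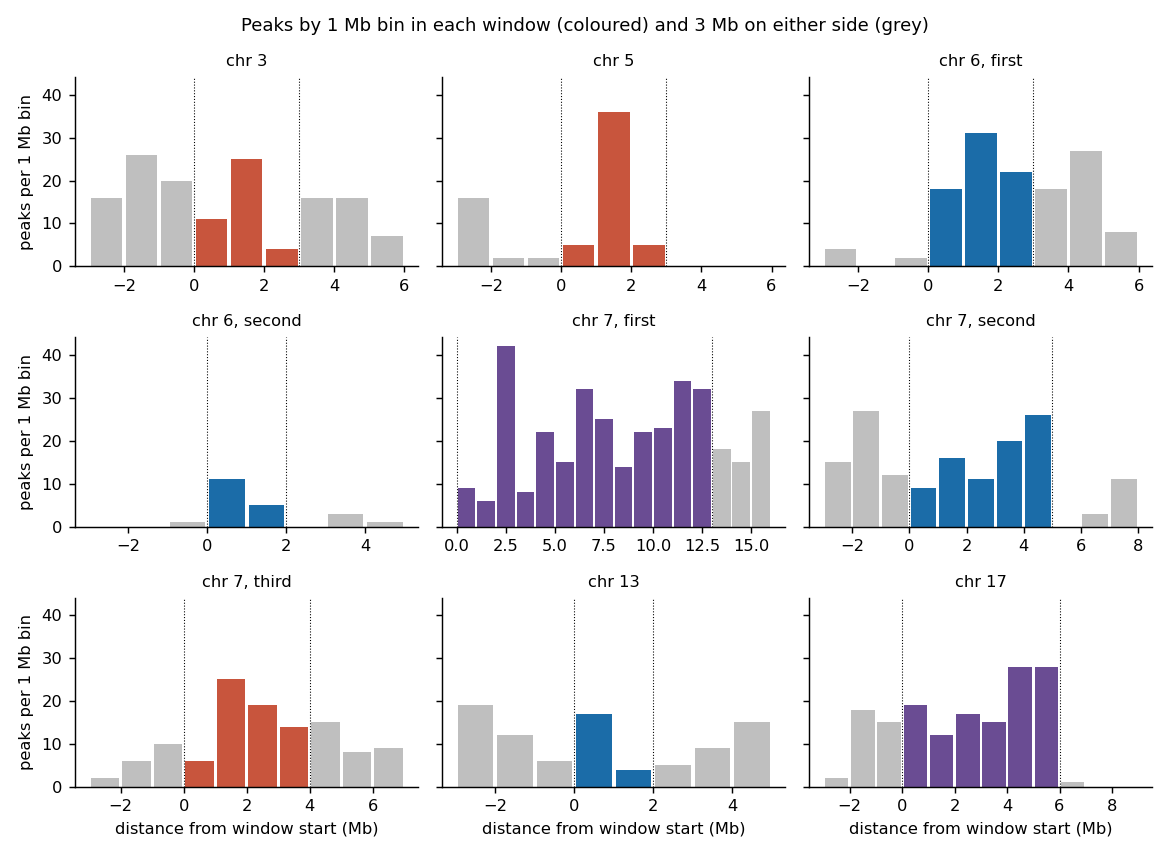
Number of peaks per 1 Mb bin in each window (coloured by receptor family: blue V1R, red V2R, purple both) and in the 3 Mb on either side (grey), against distance from the window's start in Mb, with dotted lines at its limits. The highest bins hold 42 peaks (first window of chromosome 7) and 36 (chromosome 5); after the windows of chromosomes 5 and 17 the 3 grey bins hold 0 and 1 peak in all.

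On chromosome 7 the first window was rich along most of its length. Its 13 bins held 9, 6, 42, 8, 22, 15, 32, 25, 14, 22, 23, 34 and 32 peaks, and 8 of them reached 20. The bin of 42, from 5000001 to 6000000, and that of 34, from 14000001 to 15000000, were the first and second of the 148 bins of the chromosome. The shortest stretch with 50% of the peaks took 42.2% of the window, the largest such share among the 9. Peaks did not thin out past the window, since the 4 Mb between it and the second window held 72, or 18.0 per Mb (14.1 to 22.7), with 61.1% of them within 10 kb of another. A stretch of 1.20 Mb without a peak separated these peaks from the first peak of the second window, which started at 20566187.

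The second window of chromosome 7 held 9, 16, 11, 20 and 26 peaks and had a stretch without peaks on its other side as well, since its last peak ended at 24955690 and the next lay 1.41 Mb further. The third held 6, 25, 19 and 14, with 6 per Mb before it and 10.7 per Mb after it. On chromosome 17 the bins held 19, 12, 17, 15, 28 and 28 peaks, so that 50% of the peaks lay in the 1.93 Mb from 21684647 to 23610354. There the last peak ended at 23612881 and the next lay 1.31 Mb further, and the 3 Mb after the window held 1 peak. Taking all windows together, the 3 Mb on either side held 8.63 peaks per Mb and the windows 2.10 times that density.

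The median width of the members was 5980 bp (95% order-statistic interval 5596 to 6321), against 6415 bp (6358 to 6484) in the rest. This difference of -435 bp was not a common property of the windows, because 5 of 9 had a median above that of the rest of their chromosome. Over the windows with equal weight, the median difference was 106 bp. Without the second window of chromosome 7, with 82 of 743 peaks, the pooled difference was -106 bp. After peaks closer than 5 kb were merged the direction turned, with 6995 bp in the windows and 6841 bp in the rest. The pooled comparison also mixes chromosomes unequally, since chromosome 7 held 430 of the 743 members and 972 of the 7156 other peaks. On chromosome 7 the medians were 5663 bp (5394 to 6130) in the windows and 5789 bp (5361 to 6101) outside. With chromosome 7 left out on both sides the difference was -192.5 bp. How much of the pooled difference came from this mix was not tested.

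The second window of chromosome 7 stood apart by narrow peaks. Their median was 4126 bp (3493 to 5108), the lowest of the 9, beside 5789 bp (5361 to 6101) in the rest of chromosome 7. In its 5 bins the medians were 4190, 4299, 5098, 3632 and 4293 bp, so the low width ran through the whole window. Only 1 of its 82 peaks was wider than 10 kb (1.22%, 95% binomial interval 0.03 to 6.61), and its widest measured 10126 bp. Peaks narrower than 2 kb made up 14.6% (7.80 to 24.2), where they were 6.58% (5.11 to 8.33) of the rest of the chromosome. Because of its narrow peaks, the window was covered to 7.38%, the second lowest share of the 9, although it was the fourth by peaks per Mb.

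The first window of chromosome 7, 4 Mb away, held the largest number of wide peaks. Its median of 6366 bp (5572 to 7040) was near that of the other windows, but 70 of 284 peaks were wider than 10 kb (24.6%, 19.7 to 30.1), against 10.7% (8.83 to 12.8) in the rest of the chromosome. These 70 were most of the 119 such peaks in all windows. By share it did not stand alone, since peaks wider than 10 kb made up 28.6% on chromosome 13 (11.3 to 52.2, 6 peaks), 20% on chromosome 3 (9.05 to 35.6, 8 peaks) and 18.8% in the second window of chromosome 6 (4.05 to 45.6, 3 peaks). The widest, 37247 bp from 14061574 to 14098820, also exceeded every peak outside the windows on the 6 chromosomes, of which the widest measured 35459 bp. The wide peaks left peaks over 16.5% of the window's bases, the highest share of the 9. Widths changed along this window: the bins from 7000001 to 10000000 had medians of 4826, 3367 and 4343 bp, while those from 12000001 to 15000000 had 7303, 8820 and 8386 bp.

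Widths between 6 and 7.5 kb, a range close to the length of a full-length mouse L1 element, were less common in the windows as a whole. They made up 17.4% of the members (14.7 to 20.3) and 23.7% of the rest (22.7 to 24.7). The lower share was that of the bins with 20 or more peaks, at 13.3% (10.4 to 16.7) in the windows and 21.9% (20.3 to 23.6) outside. Of the 17 such bins of the windows, 8 lay in the first window of chromosome 7. In bins with 10 to 19 peaks the shares were 23.9% (18.3 to 30.3) and 23.4% (21.9 to 24.9), and in bins with fewer than 10 they were 26.2% (15.8 to 39.1) and 26.8% (24.6 to 29.0). By window, the lowest shares were found on chromosome 7. In its first and second windows the share was 11.6% (8.13 to 15.9) and 14.6% (7.80 to 24.2), but in the third it was 23.4% (13.8 to 35.7). The 6 windows elsewhere had shares from 20.2% on chromosome 17 to 25% on chromosome 3 and in the second window of chromosome 6. Peaks on chromosome 7 outside the windows had a share of 22.8% (20.2 to 25.6), above the interval of the first window and within that of the second.

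Among the other windows, the largest differences from the chromosome came with wide intervals. On chromosome 13 the median was 7842 bp, the highest of the 9 and 1262 bp above the 6580 bp of the rest, which its interval included (6258 to 10042, 21 peaks). The first window of chromosome 6 had a median of 5756 bp (4644 to 7079) beside 6515 bp, a difference of -759 bp, and chromosome 17 had 5897 bp (5055 to 6446) beside 6062 bp. In the windows of chromosome 3, chromosome 5, the second of chromosome 6 and the third of chromosome 7 the difference from the rest of the chromosome ranged from -258 to 241 bp. The widest peaks of the windows outside chromosome 7 measured between 14666 bp, on chromosome 5, and 22886 bp, on chromosome 17 from 22773078 to 22795963.

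**Figure D3:**
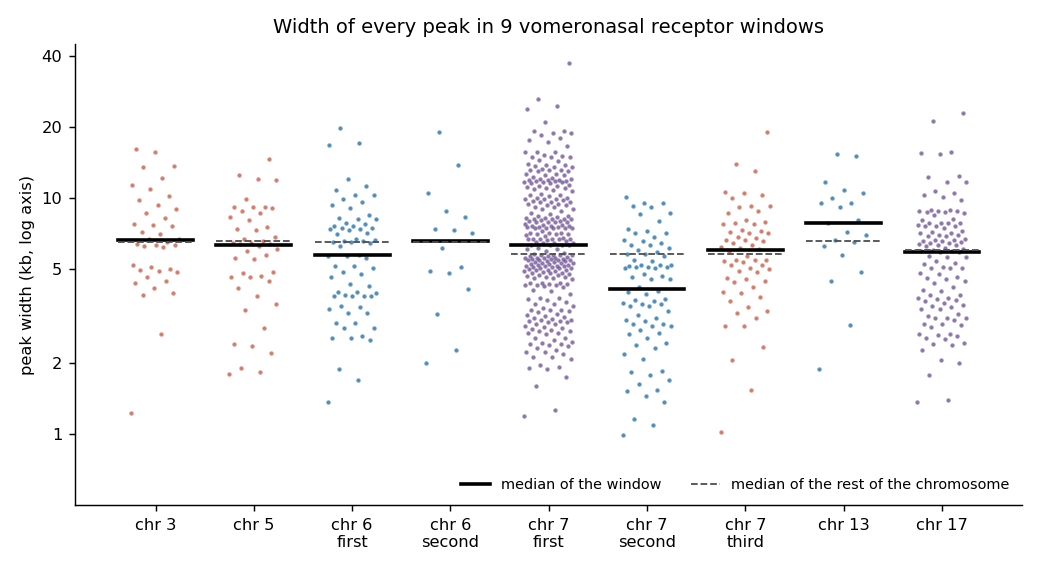
Width in kb (log axis) of each of the 743 peaks by window, with the window's median (thick line) and that of the rest of its chromosome (dashed line). The second window of chromosome 7 has the lowest median, 4126 bp, and 1 peak above 10 kb, while 70 peaks of the first window lie above 10 kb.

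Pooled over the windows, members also lay nearer to each other. Of the 743, 401 had another peak within 10 kb, measured from edge to edge (54.0%, 95% binomial interval 50.3 to 57.6), against 40.1% of the rest (39.0 to 41.2). The difference of 13.9 percentage points fell to 7.5 and 5.76 after peaks closer than 1 kb and 5 kb were merged, and to 9.15 without the first window of chromosome 7. The median distance to the nearest peak was 8154 bp (6980 to 9922) in the windows and 15939 bp (15111 to 16771) outside. This share rises with density on its own, so it was compared in bins of like peak number. In bins with 20 or more peaks it was 66.0% (61.5 to 70.2) in the windows and 57.2% (55.2 to 59.2) outside, although the former bins were also fuller, with 27.8 against 24.3 peaks on average. In bins with 10 to 19 peaks it was 35.4% (28.9 to 42.3) in the windows and 37.7% (36.0 to 39.4) outside, and in bins with fewer than 10 it was 24.6% (14.5 to 37.3) and 19.6% (17.7 to 21.6). The bins with fewer than 10 were also unlike in fullness, with 6.1 peaks on average in the windows against 3.64 outside. The closer spacing was thus seen at the bins with 20 or more peaks, and the intervals of the other classes overlapped. Of these 17 bins of the windows, 8 lay in the first window of chromosome 7.

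By window, the share within 10 kb was above that of the rest of the chromosome in 5 of 9, and it followed the order of density only in part. It was highest in the first window of chromosome 7, at 61.6% (55.7 to 67.3), followed by the second at 57.3% (45.9 to 68.2), chromosome 5 at 56.5% (41.1 to 71.1) and chromosome 17 at 55.5% (46.1 to 64.6). For these 4 the interval lay above the value of the rest of the chromosome, which was 38.9%, 36.6% and 42.4% on chromosomes 7, 5 and 17. The first window of chromosome 6, the densest of all, was the fifth with 52.1% (39.9 to 64.1), an interval that includes the 41.9% of its chromosome. The third window of chromosome 7 had 35.9% (24.3 to 48.9), below the rest of its chromosome, although its density of 16 per Mb was close to the 16.4 of the second window, where the share was 57.3%. Chromosome 3 stood at 42.5%, chromosome 13 at 28.6% and the second window of chromosome 6 at 25%. All were below the rest of their chromosome (43.5%, 34.9% and 41.9%), a value that each interval included.

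**Figure D4:**
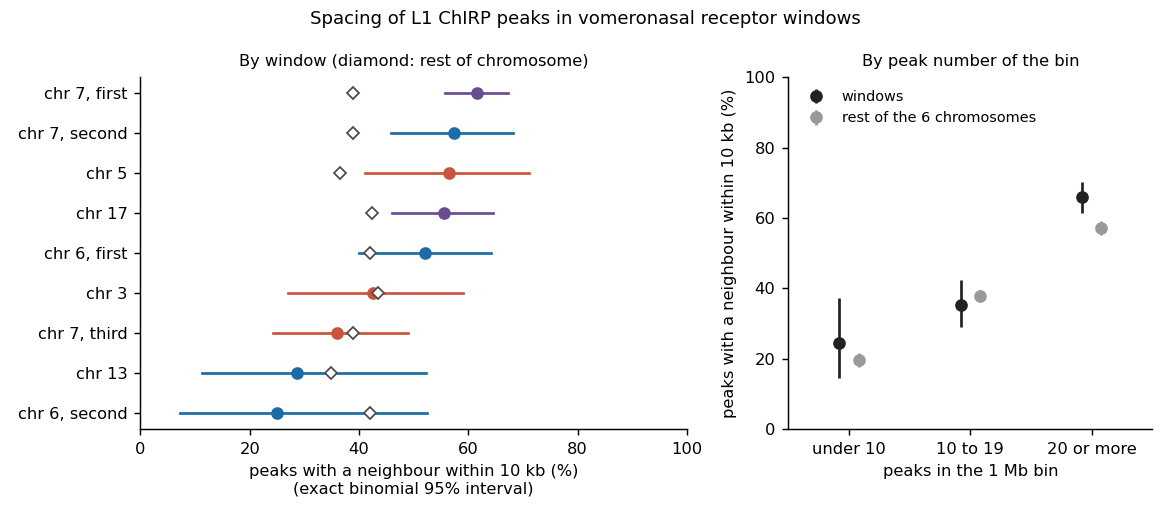
Left, the share of peaks (%) with another peak within 10 kb in each window (points, exact binomial 95% intervals) beside the rest of its chromosome (open diamonds). Right, the same share by the number of peaks in the 1 Mb bin, in the windows (black) and in the rest of the 6 chromosomes (grey), with 66.0% against 57.2% in bins of 20 or more peaks.

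Runs of at least 4 peaks with gaps of up to 10 kb were also more common. The windows held 19 such chains with 94 peaks, or 12.7% of the members (10.3 to 15.3), against 7.22% of the rest (6.64 to 7.85). The first window of chromosome 7 held 9 of these chains, with 47 peaks. The share in chains was not compared in bins of like peak number, so it cannot be told apart from the higher density. The chain with the most peaks was on chromosome 7, from 5453258 to 5551664, where 9 peaks covered 87.5% of 98.4 kb. Chains of 6 peaks lay in the first window of chromosome 6, from 57282661 to 57326561, and in the second of chromosome 7, from 21072531 to 21111919. No run reached 4 peaks on chromosome 13, in the second window of chromosome 6 or in the third of chromosome 7.

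Peaks close to another were narrower in some windows and wider in others. In the second window of chromosome 7 the median width was 3692 bp (3047 to 4786) for the 47 peaks within 10 kb of another and 5088 bp (3550 to 5678) for the other 35. In the third it was 5017 bp (4198 to 6237) for 23 peaks and 6559 bp (5370 to 7280) for 41. The rest of chromosome 7 had the same direction, with 5074 bp (4723 to 5829) and 6076.5 bp (5635 to 6323). In the first window of chromosome 7 the pair of medians was 6435 bp and 6364 bp. Peaks near another also had the higher median on chromosome 3 (7027 bp and 6550 bp) and chromosome 13 (9631 bp for 6 peaks and 7196 bp for 15). In all other windows they had the lower median. Pooled over the windows, the values were 5654 bp (5230 to 6078) and 6321 bp (5776 to 6592), and in the rest 6230 bp (6014 to 6361) and 6507 bp (6426 to 6572). The intervals of these pairs in the windows overlapped.

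The longest stretch without a peak in each window ranged from 0.23 Mb, in the first window of chromosome 6, to 0.66 Mb, in the first of chromosome 7 from 3081893 to 3740729. No like value for the rest is given here. In 6 windows the longest stretch ran to a limit of the window and was counted only up to it, as on chromosome 13, where no peak followed from 23473556 to the window's end. Divided into tiles of 100 kb, the windows of chromosome 17 and the first of chromosome 7 had a peak midpoint in 81.7% and 80.8% of tiles, those of chromosome 13 and the second of chromosome 6 in 55.0% and 45%. Chromosome 5, with 46 peaks, filled 56.7% of its tiles, fewer than the 70.0% of chromosome 3 with 40.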

How the data were processed

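The series' L1 ChIRP library was analysed from the peak list deposited by the authors, which holds 3 columns (chromosome, start and end in bp) and no score. Per the submitters' processing notes, the build was mm9 and the tools were MACS 1.4.2, Bowtie2 2.2.2 and CASAVA, with no role or setting stated. Thresholds, the control used for calling and how multiply mapped reads were treated are points not given in the sources used here. Reads from near-identical L1 copies or duplicated receptor genes may add or remove peaks. Neither the Malat1 nor the input library was used.

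Computations used scipy 1.17.1, pandas 2.3.3 and numpy 2.4.6 under Python 3.11.15, and figures used matplotlib 3.10.9. Window limits came from the rule, and positions are printed from 1. The rest of a chromosome is the span from its first to its last peak without the windows; assembly gaps were not removed. Densities have exact Poisson intervals, their ratios exact conditional binomial intervals, shares exact (Clopper-Pearson) binomial intervals and medians order-statistic intervals, all at 95%. They treat peaks as independent and cover counting error only. Widened intervals multiply the variance of the log ratio by the variance over mean of the 1 Mb bins outside the windows, on the same chromosome or pooled; neighbouring bins are alike, so these may still be too narrow. The functions were tested on simulated data. The rule for named items gave, in each window, the bin with the most peaks and any without one, the widest peak, the longest stretch without a peak and the longest chain. Other bins and the shortest stretches with 50% of the peaks were chosen after their values were seen. The windows, groups and measures were chosen with earlier results of these data known. No sequence of mm9 was used here.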

Additional observations from a re-analysis of the deposited data

Results flagged for a closer look

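Peaks on unplaced sequence were set aside because the comparison of windows does not use them. On the unplaced sequence assigned to chromosomes with windows there were 10 peaks: 4 for chromosome 7, 4 for chromosome 17 and 2 for chromosome 5, with none for chromosomes 3, 6 and 13. Their median width was 6574 bp and ranged from 1279 to 13301 bp. How many such peaks a control library would give was not analysed, and whether this sequence belongs to receptor clusters was not analysed.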

How the results depend on the processing

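The density ratio of 1.94 stayed above 1 in all 13 alternatives, 1 of them chosen after seeing the data. It was 1.94 by any overlap, 1.97 by covered bases and 2.07 as the median over windows. It was 2.14 with window limits moved inward by 0.5 Mb and 1.74 with limits moved outward, 1.80 and 1.77 after peaks closer than 1 kb or 5 kb were merged, 2.10 against the 3 Mb on either side, 1.72 in bins that hold a peak, 1.73 for peaks wider than the median of all peaks and 2.17 for the others. It was 1.76 without the longest window and 1.71 without any window of chromosome 7. With each of the other 8 windows left out in turn it ranged from 1.87, without chromosome 17, to 2.17, without chromosome 3. In these settings, here and below, a chromosome left with no window was dropped from the rest as well. Without chromosome 3 the windows went from 18.1 to 18.5 peaks per Mb and the rest from 9.32 to 8.52.

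The width difference of -435 bp turned to 154 bp after merging at 5 kb and to 106 bp as the median over windows, and became -18.5 bp after merging at 1 kb. It ranged from -659 to -106 bp with each window left out in turn, without the first and without the second window of chromosome 7.

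The difference in the share of peaks within 10 kb of another, 13.9 percentage points, kept its direction in all 11 alternatives. It was 7.5 and 5.76 after merging at 1 kb and 5 kb, 9.15 without the longest window, 10.2 as the median over windows, 8.72 for neighbours within 50 kb and 9.56 without any window of chromosome 7. It ranged from 9.15 to 15.8 with each window left out in turn. Without the first window of chromosome 7 it was 9.15, or over 1.5 times lower. The 15.8 came without chromosome 3, which then left the rest as well, at 54.6% in the windows and 38.8% in the rest. The cause of these changes was not tested. No paired analysis was possible because the list comes from a single library. The unknown read depth sets how many weaker sites were called.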
